A study of Rattus norvegicus with 84 samples.

Results

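Plasma-derived extracellular vesicles (EVs) were compared between stroke rats that had received human neural stem cells (hNSCs) and stroke rats that had not, at 4 days poststroke, by their known rat miRNAs. The comparison used 6 of the 84 libraries of the series, 3 of the hNSCs group and 3 of the control group, and 699 known miRNAs of the 5489 rows of the miRNA count table. All rats of both groups were wild-type adult male Sprague-Dawley rats with transient occlusion of the right middle cerebral artery. The hNSCs group received primary neural stem cells of human fetal telencephalon through the common carotid artery, 1 day before sampling by the column labels. The cells were given in glucose buffer and the control group received saline, so the group stands for cells of that source with their buffer. The labels call the libraries of a group biological replicates. EVs were isolated by size exclusion chromatography from plasma, although the labels' extraction text speaks of serum. Healthy rats and the hNSCs and control groups at 10 and 31 days poststroke, each of 3 libraries, entered the same model.

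EVs are membrane-bound particles that cells release into blood, and the miRNAs they carry are short RNAs that pair with messenger RNAs and lower their translation or stability. A miRNA recognises its targets mainly through its seed, bases 2 to 8 from the 5′ end, so miRNAs with 1 seed form a family. Plasma EVs come from many sources, among them platelets, leukocytes, red cells, endothelium, liver and muscle, and after brain injury some may come from the brain. A level in bulk EV RNA is relative, so more EVs of 1 source and more of a miRNA in each EV cannot be told apart.

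The sequences below are RefSeq mature miRNAs of the GRCr8 annotation, written 5′ to 3′ with the seed in capitals. Of the 309 miRNAs tested, 280 had a RefSeq entry, and all 280 entries were identical to the deposited sequences. The first is the miRNA with the smallest p in the comparison, shown with its human homologue from the study's sequence list, because the transplanted cells were human.
miR-488-3p, rat: uUGAAAGGcuguuucuugguc
miR-488-3p, human: uUGAAAGGcuauuucuugguc
The pair shared its seed and differed at 1 position, G11A, with the rat base first and positions counted from the 5′ end. The next sequences are a choice from the 20 miRNAs of smallest p, namely a pair of minor arms whose groups did not overlap, miR-27a-5p and miR-130b-5p, and the brain-enriched miR-128-3p and miR-338-3p.
miR-27a-5p: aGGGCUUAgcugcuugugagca
miR-130b-5p: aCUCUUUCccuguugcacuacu
miR-128-3p: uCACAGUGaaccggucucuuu
miR-338-3p: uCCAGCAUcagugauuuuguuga
The following families are shown because members of 1 seed had unlike differences, or because their counts came from the same reads.
miR-449a-5p: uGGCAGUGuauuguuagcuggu
miR-34a-5p: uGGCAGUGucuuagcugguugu
miR-181c-5p: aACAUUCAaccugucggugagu
miR-181a-5p: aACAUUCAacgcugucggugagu
miR-330-5p: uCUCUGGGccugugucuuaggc
miR-326-3p: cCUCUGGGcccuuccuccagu
miR-103-3p: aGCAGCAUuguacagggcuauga
miR-107-3p: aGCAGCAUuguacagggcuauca
The hairpin of miR-488 lies on GRCr8 chr13:73216541-73216619, plus strand, within the span of Astn1, a gene of neuronal migration. The hairpin of miR-330 lies on chr1:87961207-87961303, plus strand, within the span of Eml2, and that of miR-338 on chr10:105796342-105796407, minus strand, within the span of Aatk. The hairpin of miR-27a, chr19:40859603-40859689, minus strand, has those of miR-23a and miR-24-2 within 10 kb, and that of miR-181c, chr19:40888291-40888396, plus strand, has that of miR-181d.

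The 6 libraries held 429365 to 1585417 UMI counts, of which 95.5% to 99.1% were on known miRNAs. In each group the library of number 2 was the shallowest and the library of number 3 the deepest. Between 362 and 457 known miRNAs had a count in a library, 531 had one in at least 1 of the 6 libraries, and 305 in each of the 6. The 309 miRNAs that passed the filter on low counts held over 99.9% of the known counts, and no miRNA left untested had more than 39 counts over the 6 libraries. Log-scale profiles correlated at r = 0.940 to 0.977 within the groups and at 0.934 to 0.976 between them.

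No miRNA passed the test between the hNSCs and control groups at 4 days poststroke. With edgeR's quasi-likelihood test, 0 of 309 miRNAs (0%) had an adjusted p under 0.05 with a change over 1.5-fold, and the smallest adjusted p was 0.167, that of miR-488-3p. DESeq2 called 1 miRNA, miR-488-3p, at an adjusted p of 0.0146, and limma on log2(TPM + 1) and on log2(TPM + 0.1) called 0. At an unadjusted p under 0.05, edgeR gave 14 miRNAs, of which 10 were higher in the hNSCs group (3.24% of those tested) and 4 lower (1.29%). That split was 5 higher and 10 lower with RLE size factors, 7 and 5 with library totals alone and 7 and 11 in DESeq2, so the balance of directions depended on the scaling. In 28 miRNAs (9.06%) all 3 hNSCs libraries lay above all 3 control libraries, and in another 28 (9.06%) all 3 lay below. The median log2 fold change was −0.01, and 154 of the 309 were above 0. The 95% confidence interval, without adjustment, reached a median of 1.22 to either side on the log2 scale. Differences smaller than that were mostly not detectable with 3 libraries a group. Larger ones, such as −1.85 for miR-27a-5p, also did not pass after adjustment.

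**Figure D1:**
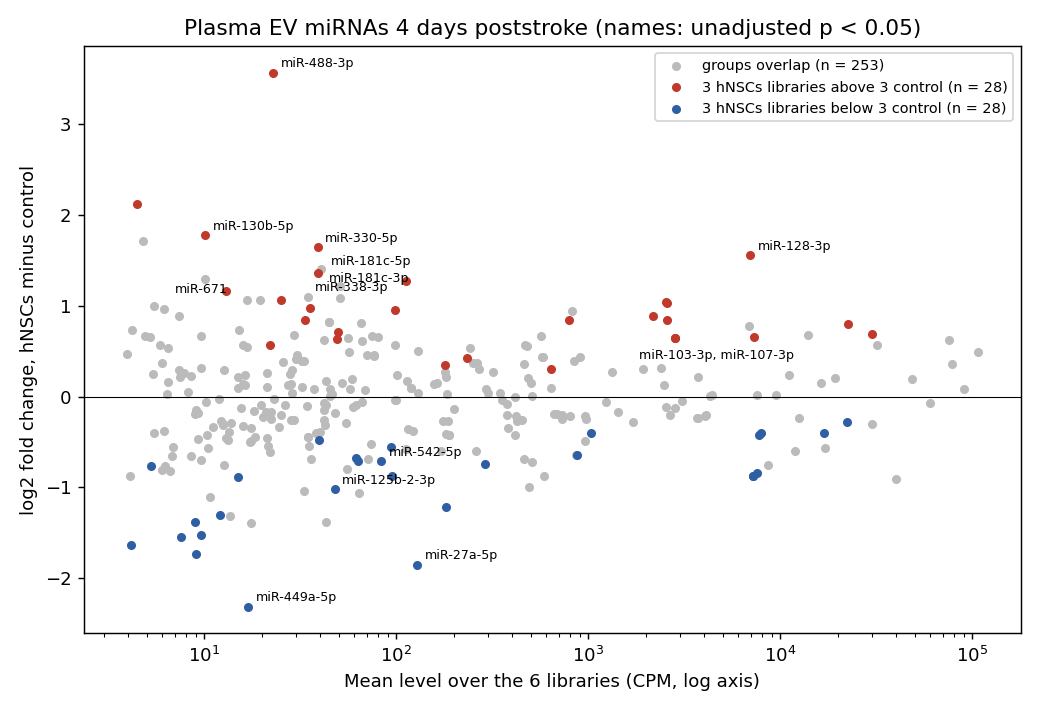
Mean level over the 6 libraries (CPM, counts scaled to the total of known counts, log axis) against the log2 fold change, hNSCs minus control, for the 309 miRNAs tested, coloured by whether the 3 libraries of each group overlap. miR-488-3p stands at 3.57, away from the other miRNAs, and 28 miRNAs lie in each of the 2 sets whose groups do not overlap.

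The values that follow are those of the 20 miRNAs with the smallest unadjusted p, none of which passed the adjusted threshold. Values are CPM, counts scaled to the total of known counts with TMM factors, given for libraries 1, 2 and 3 of each group.

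miR-488-3p, which is enriched in neurons, was the miRNA that differed most. It measured 3.46, 6.09 and 1.83 CPM in the control libraries and 45.6, 28.4 and 52.0 CPM in the hNSCs libraries. Every hNSCs library was several times above every control library, and the groups did not overlap. The log2 fold change was 3.57 ± 0.86 (SE, n = 3 and 3), or 11.9-fold, with an unadjusted p of 5.39e-04 and an adjusted p of 0.167 in edgeR. Over all alternatives, leave-outs included, the log2 value lay between 3.12 and 4.01 and the adjusted p between 0.0146 and 0.997, and 3 alternatives gave an adjusted p under 0.05. The control values rest on 3, 3 and 2 UMI counts against 39, 13 and 68 in the hNSCs libraries. Summed over the groups, 120 against 8 counts gave a ratio per known count of 12.4 with an exact 95% interval of 6.11 to 29.4, which covers counting error only. The count table does not tell the human sequence from the rat sequence, and whether a read of 1 was counted as the other was not tested.

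Other neuronal and glial miRNAs among the 20 did not all go 1 way, and none passed the adjusted test. miR-128-3p and miR-338-3p were higher in the hNSCs group. miR-125b-2-3p, the minor arm of a neuronal and myeloid miRNA, was lower, at −1.02 on the log2 scale. miR-128-3p, one of the most abundant neuronal miRNAs and the 30th most abundant here, measured 3286, 2791 and 4566 CPM in the control libraries and 10397, 7578 and 13322 CPM in the hNSCs libraries. The groups did not overlap, and the log2 fold change was 1.56 ± 0.72 (SE), with an adjusted p of 0.789 in edgeR. The healthy rats held 2171, 3061 and 15570 CPM of miR-128-3p, from lowest to highest, and the control group at 10 days reached 14420 CPM. Untreated libraries thus also reached levels above every hNSCs library of 4 days. miR-338-3p, which acts in oligodendrocyte maturation, measured 33.4, 16.2 and 15.6 CPM against 67.8, 48.1 and 26.0 CPM. Library 3 of the hNSCs group lay below library 1 of the control group, so these groups overlapped.

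Both arms of the miR-181c hairpin, a miRNA of brain and immune cells, were among the 20. miR-181c-3p measured 20.7, 32.5 and 13.8 CPM in the control libraries and 78.3, 43.7 and 45.9 CPM in the hNSCs libraries, with no overlap. miR-181c-5p measured 31.1, 12.2 and 22.0 CPM against 117, 35.0 and 24.5 CPM, and its groups overlapped. Library 1 of the hNSCs group was the highest for both arms. Without it the log2 fold change of miR-181c-5p was 0.40 in place of 1.41. The other members of the seed family were nearer to 0, at 0.37 for miR-181b-5p and −0.21 for miR-181a-5p, which was the most abundant of the 4.

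miR-330-5p measured 32.3, 8.12 and 15.6 CPM in the control libraries and 61.9, 45.9 and 70.4 CPM in the hNSCs libraries. The groups did not overlap, and the log2 fold change was 1.64 ± 0.62 (SE) with an adjusted p of 0.789. miR-326-3p, which has the same seed, stood at 0.45. miR-130b-5p, the minor arm of its hairpin, measured 5.76, 4.06 and 3.67 CPM against 10.5, 17.5 and 19.1 CPM, on 2 to 25 counts a library, and its other arm, miR-130b-3p, stood at 0.24 on the log2 scale.

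miR-103-3p and miR-107-3p, which regulate insulin sensitivity and metabolism, had nearly the same counts in each library. Summed over the 6 libraries they held 14533 and 14532 UMI counts, and their sequences differ by 1 base near the 3′ end. Their values therefore count as 1 measurement. miR-103-3p measured 2198, 2212 and 2169 CPM in the control libraries, the tightest control values among the 20, and 3922, 2990.2 and 3402 CPM in the hNSCs libraries. The log2 fold change of each was 0.65 ± 0.31 (SE) with no overlap between the groups.

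The remaining miRNAs of the 20 that were higher in the hNSCs group had small levels. miR-17-5p, the best-known member of the proliferation-linked miR-17/92 cluster, measured 61.1, 60.9 and 76.1 CPM against 132, 107 and 237 CPM with no overlap. miR-339-3p measured 23.0, 22.3 and 25.7 CPM against 38.6, 56.8 and 33.7 CPM, also without overlap. miR-671 and the heart muscle miRNA miR-208a-3p had log2 fold changes of 1.06 and 1.08, and the groups overlapped for both.

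Among the miRNAs that were lower in the hNSCs group, miR-27a-5p had the smallest p. It measured 151, 386 and 68.8 CPM in the control libraries and 47.9, 59.0 and 59.7 CPM in the hNSCs libraries. The hNSCs values were alike and the control values spread widely, with library 3 of the control group just above the hNSCs group. The log2 fold change was −1.85 ± 0.54 (SE) with an adjusted p of 0.455, and it was −0.95 without library 2 of the control group. Its other arm, miR-27a-3p, which is far more abundant, stood at −0.23 on the log2 scale, and its groups overlapped.

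miR-449a-5p, a miRNA of multiciliated cells, measured 27.7, 48.7 and 9.17 CPM in the control libraries and 4.67, 4.37 and 6.89 CPM in the hNSCs libraries. The groups did not overlap, but the hNSCs values rest on 4, 2 and 9 counts, and the log2 fold change was −2.31 ± 0.88 (SE) with an adjusted p of 0.789. miR-34a-5p, a p53 target of the same seed family, stood at 0.34 on the log2 scale, with no overlap between the groups in the opposite direction.

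miR-145-5p, a miRNA of smooth muscle and pericytes, measured 267, 268 and 226 CPM in the control libraries and 87.6, 155 and 85.7 CPM in the hNSCs libraries. miR-221-3p, which is abundant in endothelium and smooth muscle, measured 325, 440.5 and 317 CPM against 143, 262 and 244 CPM. Neither overlapped between the groups, and their log2 fold changes were −1.22 ± 0.61 and −0.74 ± 0.35 (SE).

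miR-10a-5p, encoded in a Hox cluster, measured 11019.8, 8306 and 8823 CPM in the control libraries and 3526, 5998 and 5793 CPM in the hNSCs libraries, with no overlap. miR-10b-5p had counts within 5% of it in each library and is not a separate measurement. miR-125b-2-3p, the minor arm of a neuronal and myeloid miRNA, and miR-542-5p had log2 fold changes of −1.02 and −0.71, and neither overlapped between the groups.

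**Figure D2:**
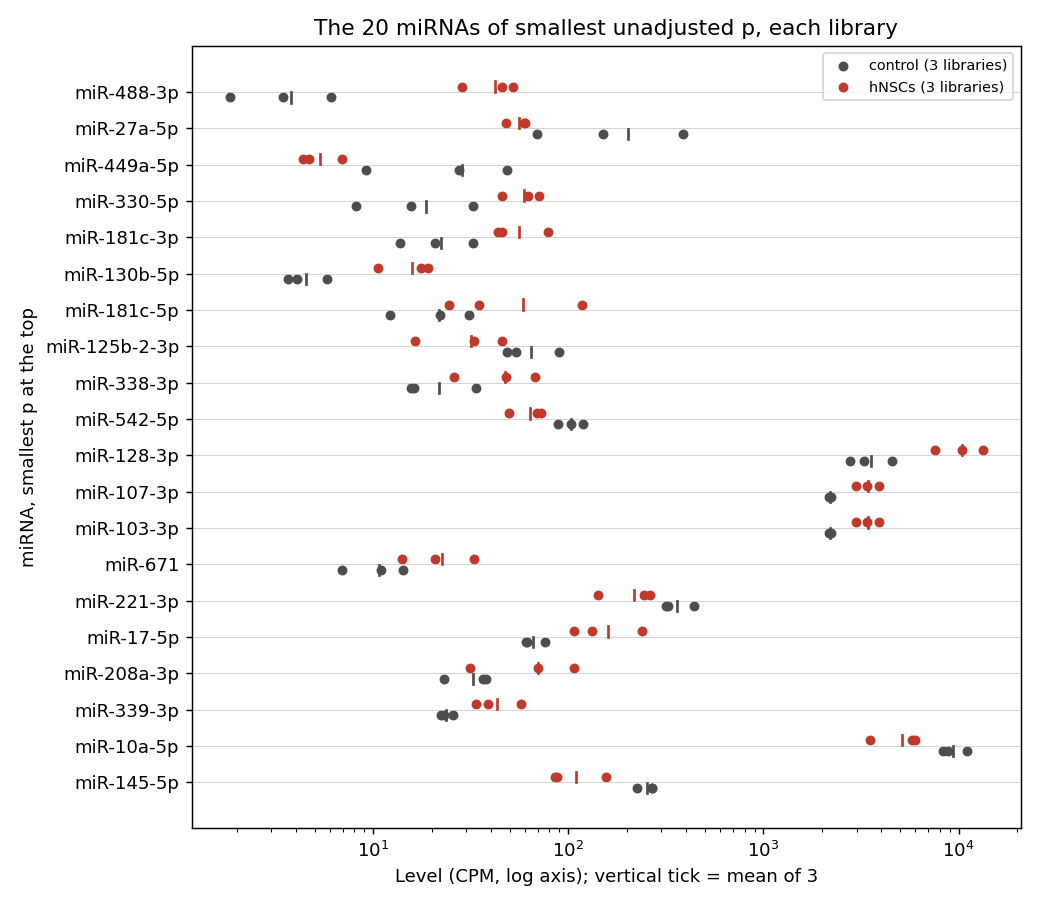
Level of the 20 miRNAs of smallest unadjusted p in each library (CPM, log axis), control in grey and hNSCs in red, with a tick at the mean of 3 libraries. The groups do not overlap for 16 of the 20, with miR-103-3p and miR-107-3p counted separately. The 20 were chosen by p on these same libraries, so little overlap follows from the choice. Over all 309 tested, 28 (9.06%) lie wholly above and 28 (9.06%) wholly below. The widest gap is that of miR-488-3p, between 6.09 and 28.4 CPM.

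None of the miRNAs that made up most of the plasma EV profile passed the test. The 10 most abundant held 58.2% to 64.0% of the known counts in the control libraries and 60.3% to 68.6% in the hNSCs libraries. let-7a-5p, a differentiation-linked miRNA, was the most abundant, at 83722, 59699 and 123069 CPM in the control libraries and 96218, 87441 and 191855 CPM in the hNSCs libraries. Library 3 was the highest of its group in both arms. miR-16-5p was next, and its log2 fold change was 0.09 ± 0.53 (SE). The liver miRNA miR-122-5p measured 42109.7, 46236 and 96022 CPM against 26672, 111804 and 37723 CPM, a spread within each group that exceeded the difference between them. The leukocyte miRNA miR-142-3p was the only one of the 10 without overlap between the groups, at a log2 fold change of 0.69 ± 0.49 (SE). miR-126a-3p stood at −0.91 ± 0.68, miR-21-5p at −0.30 ± 0.42, let-7f-5p at 0.62 ± 0.52, let-7e-5p at 0.57 ± 0.55, let-7c-5p at 0.36 ± 0.53 and let-7b-5p at 0.20 ± 0.53.

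Lists of miRNAs by source and family are described by their counts and medians, beside 0 called and a median of −0.01 over all 309 tested. No member of any list was called.

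Brain-enriched miRNAs lay mostly above 0. Of 25 listed, 14 were tested and 11 of those were higher in the hNSCs group, beside 154 of all 309. At an unadjusted p under 0.05 in edgeR, 3 were higher, beside 10 of all 309 (3.24%). The median log2 fold change of the 14 was 0.59. Their summed level was 4561 to 5713 CPM in the control libraries and 8807 to 14717 CPM in the hNSCs libraries, and most of it was miR-128-3p. miR-7a-5p, the next most abundant, stood at −0.26, and miR-132-3p, induced by neuronal activity, stood at 1.29 on the strength of 1 hNSCs library at 31.5 CPM. The median was 0.21 without library 1 of the hNSCs group. The 14 hold both arms of miR-9a, at 0.57 and 0.61, and miR-7a-5p with miR-7b, of 1 seed and similar counts. They are therefore not 14 separate measurements. The defining neuronal miRNA, miR-124-3p, was too low to test, with 6 counts over the control libraries and 12 over the hNSCs libraries.

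Vascular miRNAs lay on the other side. All 8 listed miRNAs were tested and were lower in the hNSCs group, with log2 values from −1.40 to −0.68 and a median of −0.88. None reached an unadjusted p of 0.05. In 4 of the 8 all hNSCs libraries lay below all control libraries, beside 28 of all 309 tested (9.06%). The 8 are the arms of the endothelial miR-126a, of the smooth muscle pair miR-143 and miR-145, and of miR-221 and miR-222. miR-143-3p measured 12891, 8807 and 7535 CPM against 4684, 6809 and 4769 CPM, and miR-145-3p stood at −1.40. All 8 stayed below 0 under each scaling and with each of the 6 libraries left out. Arms of 1 hairpin and neighbours of 1 cluster share a transcript, so the 8 are not 8 separate measurements.

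Blood cell miRNAs showed no shared direction. The red cell list had a median of −0.37 over 8 members, with miR-451-5p at −0.88 and miR-144-3p at −1.0 but miR-92a-3p at 0.66 and miR-16-5p at 0.09. Without library 2 of the control group that median was 0.0033, and without library 3 of the control group −0.64. Its summed level was 80552 to 127640 CPM in the control libraries and 93629 to 129610 CPM in the hNSCs libraries. Its 2 dedicated erythroid hairpins, miR-451 and miR-144, gave the lower values, and miR-451-5p ranged from 240.4 to 1295 CPM over the 6 libraries. Hemoglobin transcripts were 1.39% to 2.88% of the mRNA counts of the control rats and 0.752% to 1.62% of those of the hNSCs rats (exact permutation test, two-sided, p = 0.2, adjusted over 6 measures 0.8). The platelet list had a median of 0.21 over 9 members, with miR-126a-3p and miR-21-5p below 0, and a summed level of 79288 to 161560 CPM against 76568 to 118080 CPM. That median fell under 0.05 without any 1 of the 3 control libraries or library 1 of the hNSCs group, and was 0.0046 without library 2 of the control group. The leukocyte list had a median of 0.01 over 10 members and changed sign with the scaling, with miR-142-3p at 0.69 and miR-150-5p at 0.01 and a summed level of 38988 to 55611 CPM against 47218 to 74960 CPM. The part of these sources in the differences above was not tested.

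Liver miRNAs had a median of −0.09 over 6 members and summed to 48599 to 106810 CPM in the control libraries and 35718 to 126420 CPM in the hNSCs libraries. miR-148a-3p of this list stood at 0.78. Without library 2 of the hNSCs group, which held the most miR-122-5p, the median was −1.18, and without library 3 of the hNSCs group it was 0.25. Muscle miRNAs had a median of 0.52 over 8 tested members, 6 of which were higher. miR-1-3p and miR-1b, counted largely from the same reads, stood at 1.03 and 1.04, and miR-1-3p measured 1693, 773 and 2581 CPM against 3412, 3237 and 3662 CPM. The summed muscle level was 2269 to 6523 CPM in the control libraries and 7694 to 8764 CPM in the hNSCs libraries, so it did not overlap. The miR-1 reads enter this sum under both names and make up most of it, so the gap is largely theirs and is widened by the double entry. Epithelial miRNAs had a median of 0.02 over 10 members, changing sign with the scaling, with miR-200a-3p at −0.17 and miR-200b-3p at 0.01 and a summed level of 2158 to 5875 CPM against 2834 to 4654 CPM.

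**Figure D3:**
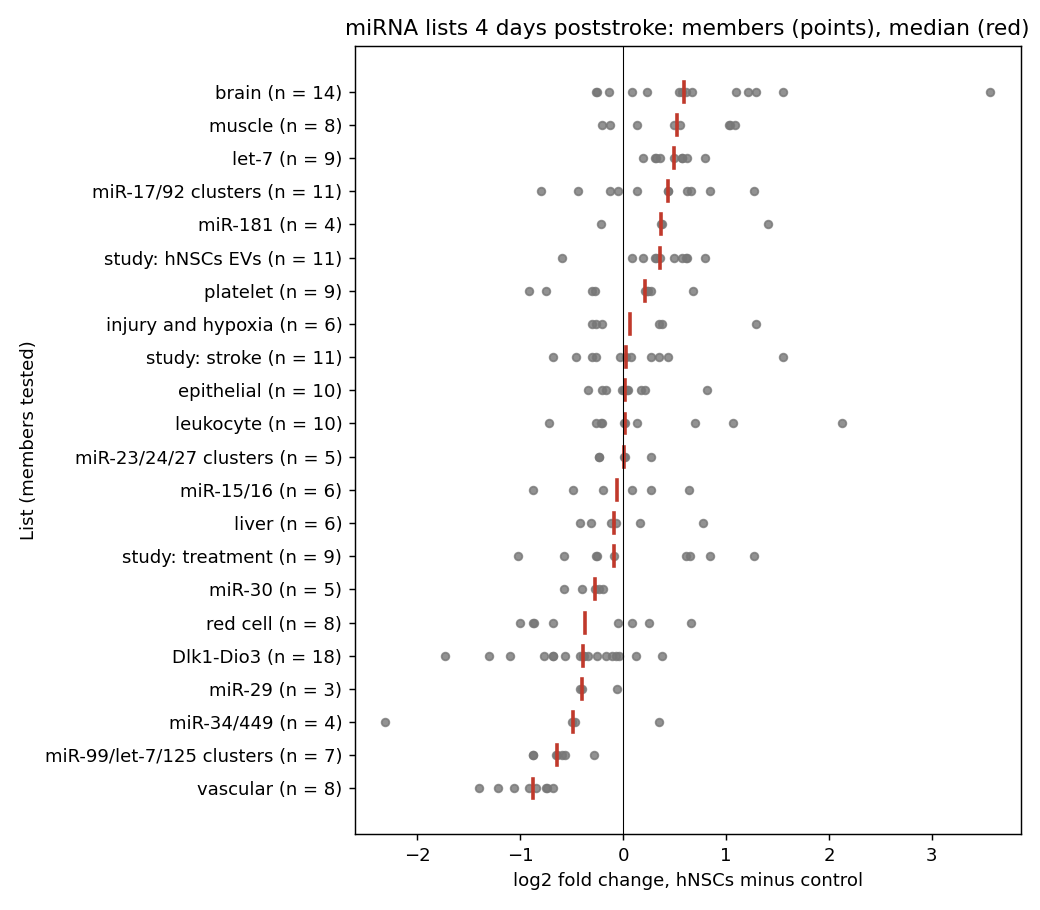
log2 fold change, hNSCs minus control, of each tested member (grey points) of 22 miRNA lists, ordered by the median of the list (red line). The medians run from −0.88 for vascular miRNAs to 0.59 for brain-enriched miRNAs, and the names of the lists are given with the number of members tested.

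Families of 1 seed or cluster differed in how closely their members kept together. The let-7 family had all 9 members above 0, with a median of 0.49, a range of 0.20 to 0.80 and none at an unadjusted p under 0.05. That median was 0.17 without library 3 of the hNSCs group, 0.29 without library 2 of the control group and 0.80 without library 3 of the control group. Its members differ from each other by few bases, which lets reads be shared. The 5 miR-30 miRNAs, linked to epithelial and cardiac tissue, were all below 0, with a median of −0.28, miR-30a-5p at −0.28 and miR-30d-5p at −0.40. The miR-29 family, which targets collagens, was also below 0 in all 3 members. miR-29a-3p at −0.42 and miR-29c-3p at −0.40 had nearly the same counts in each library and are not separate measurements. miR-29b-3p stood at −0.06. The 7 miRNAs of miR-99, miR-100, miR-10 and miR-125 were all below 0, with a median of −0.65, miR-125a-5p at −0.56 and miR-125b-5p at −0.60. Among them miR-99a-5p and miR-100-5p had nearly the same counts, as had miR-10a-5p and miR-10b-5p, so the 7 are not 7 separate measurements. The 7 also hold more than 1 seed and were listed without the let-7 miRNAs of the same clusters. Of those, let-7c-5p, with a hairpin within 10 kb of that of miR-99a, stood at 0.36. let-7a-5p, near miR-100, stood at 0.49, and let-7e-5p, near miR-99b and miR-125a, at 0.57. miR-351-5p, which shares the seed of miR-125, was also outside the list and stood at 0.04. The shared side of 0 thus holds for the members listed. In each of these 4 lists all members kept their side of 0 with RLE factors, TMMwsp factors, library totals and in DESeq2, and with 1 library left out at most 2 let-7 members, 1 miR-29 member and 1 of the 7 crossed it.

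The miR-17/92 clusters were mixed, with 7 of 11 members above 0 and a median of 0.43. That median was 0.06 without library 1 of the hNSCs group, 0.18 without library 3 of the control group and 0.71 without library 2 of the control group. Of the main arms, miR-20a-5p stood at 0.85 and miR-92a-3p at 0.66, while miR-92a-1-5p, the minor arm of a miR-92a hairpin, stood at −1.31 and miR-25-3p of the miR-106b cluster stood at −0.05. The miR-15/16 family had a median of −0.06 over 6 members, with miR-322-5p at −0.49, and changed sign when 1 of 3 libraries was left out. The miR-34 and miR-449 family had a median of −0.48 over 4, which was −0.10 without library 3 of the hNSCs group, −0.12 without library 2 of the control group and −0.80 without library 3 of the control group. The miR-181 family had a median of 0.37 over 4 members, and 0.20 without library 3 of the hNSCs group. The miR-23, miR-24 and miR-27 clusters had a median of 0.01 over 5 members, changing sign with the scaling, and miR-23a-3p and miR-23b-3p, at 0.02 and 0.01 with an SE of 0.23, were among the least changed abundant miRNAs. The imprinted Dlk1-Dio3 cluster, active in brain, muscle and embryo, had 18 of 49 members tested and 16 of those below 0, with a median of −0.39, miR-127-3p at −0.68 and miR-434-3p at −0.04. With 1 library left out its median ranged from −0.80 to 0.02, the latter without library 3 of the control group, and without library 1 of the hNSCs group it was −0.06.

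Lists taken from the study were chosen on these samples or on the transplanted cells and are not independent of them. Of the miRNAs it named as abundant in EVs of cultured hNSCs, 10 of 11 were above 0, with a median of 0.36, and 8 of them are let-7 miRNAs. As for let-7, the median was 0.17 without library 3 of the hNSCs group, and it was 0.67 without library 3 of the control group. Those it named for the transplanted groups had a median of −0.09 over 9 tested, which was 0.60 without library 3 of the control group and 0.20 without library 2 of the control group. Those it named for stroke had a median of 0.03 over 11, which changed sign with the scaling. The study named the miRNAs of the transplantation and stroke lists from brain or plasma EVs and without 1 shared direction. The medians of these lists are therefore not a comparison with the directions it reported. The hypoxia and injury list had a median of 0.07 over 6 tested, also changing sign with the scaling, with miR-146a-5p at −0.20.

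The tested miRNAs carried 234 seeds, of which 41 were shared by 2 or more. In 26 of these 41 families all members had the same sign. Many families hold only 2 members. Some hold miRNAs of nearly the same counts, such as miR-103-3p with miR-107-3p and miR-19a-3p with miR-19b-3p. Their equal signs follow from the shared reads, so the 26 is a description only. Of 69 hairpins with both arms tested, 51 had both arms on 1 side, and the arms' log2 fold changes correlated at r = 0.46 across hairpins, as a description over miRNAs from the same libraries. The correlation of GC content with the log2 fold change was 0.10. Of the 309 miRNAs, 202 had a human homologue in the study's list, and 138 of those homologues were identical in sequence, so rat and human copies of these cannot be told apart. The median log2 fold change was 0.03 for the 138 identical, 0.00 for the 64 that were not identical and −0.14 for the 107 without a listed homologue. Among the 20 miRNAs of smallest p, 10 had an identical homologue.

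The library measures did not separate the groups. The log2 ratio of miR-451-5p to miR-23a-3p, used as a marker of red cell lysis, was −2.79 ± 1.28 in the control group and −3.56 ± 0.92 in the hNSCs group (SD, n = 3), with p = 0.5 in a two-sided exact permutation test. Total counts, the share on known miRNAs and the number of miRNAs detected each gave an exact p of 0.8, and the share of the 10 most abundant 0.4. With 3 against 3 libraries such a test cannot go below 0.1, so none of these could have passed.

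The difference between the hNSCs and control groups was tested against the same difference at the later time points, for which no library is shared. miR-488-3p was the 1 miRNA of 309 (0.324%) whose difference at 4 days departed from that at 10 days, by 5.41 ± 1.12 (SE) on the log2 scale, with an adjusted p of 0.0353 in edgeR. At 10 days its order was opposite, with 22.5, 53.1 and 72.6 CPM in the control group and 2.53, 15.2 and 22.5 CPM in the hNSCs group, from lowest to highest. At 31 days the hNSCs group was again the higher, with 6.83, 7.60 and 11.1 CPM against 15.2, 26.9 and 102 CPM, a log2 fold change of 2.50 that was 1.16 without library 3 of the hNSCs group at 31 days, and the difference from 4 days had an adjusted p of 0.994. The healthy rats lay between the groups of 4 days, at 8.55, 9.49 and 25.9 CPM. The control group at 4 days had the lowest mean of the 7 groups. The call between 4 and 10 days was lost when any of 6 of the 12 libraries was left out, namely libraries 1 and 3 of the hNSCs group at 4 days, of the control group at 4 days and of the control group at 10 days, where the smallest adjusted p was 0.0768 to 0.212. Leaving out library 1 of the hNSCs group at 10 days gave 3 calls and library 2 of the control group at 10 days 2.

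**Figure D4:**
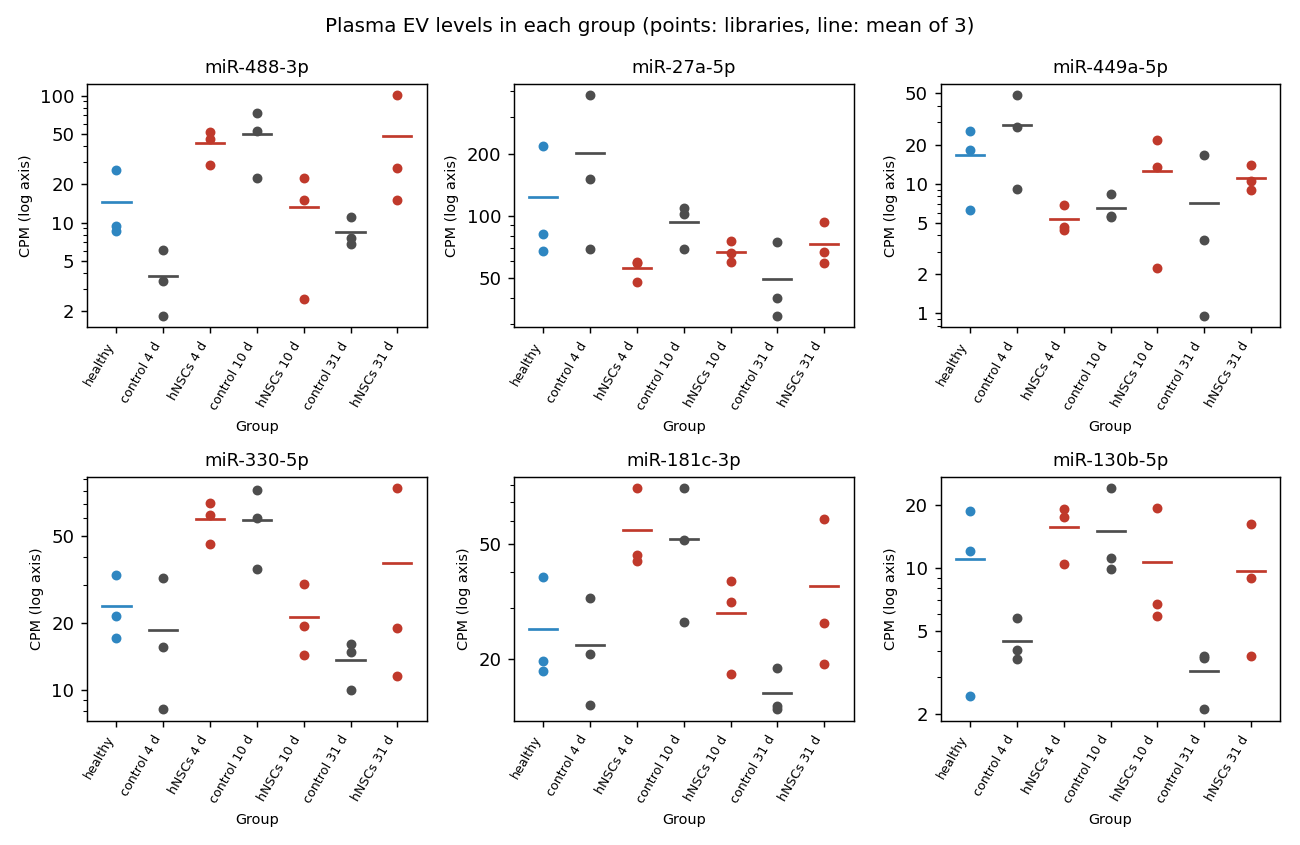
Levels of the 6 miRNAs of smallest unadjusted p in the plasma EVs of all 7 groups (CPM, log axis), with a point for each library and a line at the mean of 3. For miR-488-3p the control group at 4 days lies at 1.83 to 6.09 CPM and the control group at 10 days at 22.5 to 72.6 CPM, with the hNSCs groups in the reverse order.

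Signs at 4 and 10 days were mostly opposite across the profile, although no other departure passed in edgeR and DESeq2 passed 8 in all. Over the 309 miRNAs the log2 fold changes at 4 and 10 days correlated at r = −0.39 (Spearman −0.49), and 70.9% had opposite signs. Those at 4 and 31 days correlated at r = 0.39 (Spearman 0.40), and 33.7% had opposite signs. Of the 20 miRNAs of smallest p at 4 days, 19 had the opposite sign at 10 days, miR-27a-5p being the exception, and 3 at 31 days, namely miR-27a-5p, miR-449a-5p and miR-542-5p. Library 3 of the hNSCs group at 31 days held 11563 CPM of miR-128-3p beside 2019 and 1750 in its group, 82.4 CPM of miR-330-5p beside 19.0 and 11.5, and 192199 CPM of let-7a-5p beside 62112 and 52391. Without it the correlation of 4 and 31 days was 0.155 and 5 of the 20 had opposite signs. It was 0.18 without library 3 of the control group at 4 days, and 0.56 at most, with any 1 of the 12 libraries left out. That of 4 and 10 days lay between −0.53 and −0.20 with any 1 of its 12 libraries left out, the latter without library 3 of the control group at 4 days, and 18 or 19 of the 20 stayed opposite without any library of 10 days. miRNAs within a library are not independent, and these correlations are descriptions. For miR-145-5p the log2 fold change of −1.22 stood beside 1.87 at 10 days and −1.63 at 31 days. For miR-128-3p that of 1.56 stood beside −1.31 at 10 days and 1.07 at 31 days, but the latter was −0.53 without library 3 of the hNSCs group at 31 days. Neither departure between 4 and 10 days passed, with adjusted p-values of 0.132 and 0.200. Between 4 and 31 days 0 of 309 departures (0%) passed in edgeR, 7 at an unadjusted p under 0.05, and DESeq2 also gave 0.

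**Figure D5:**
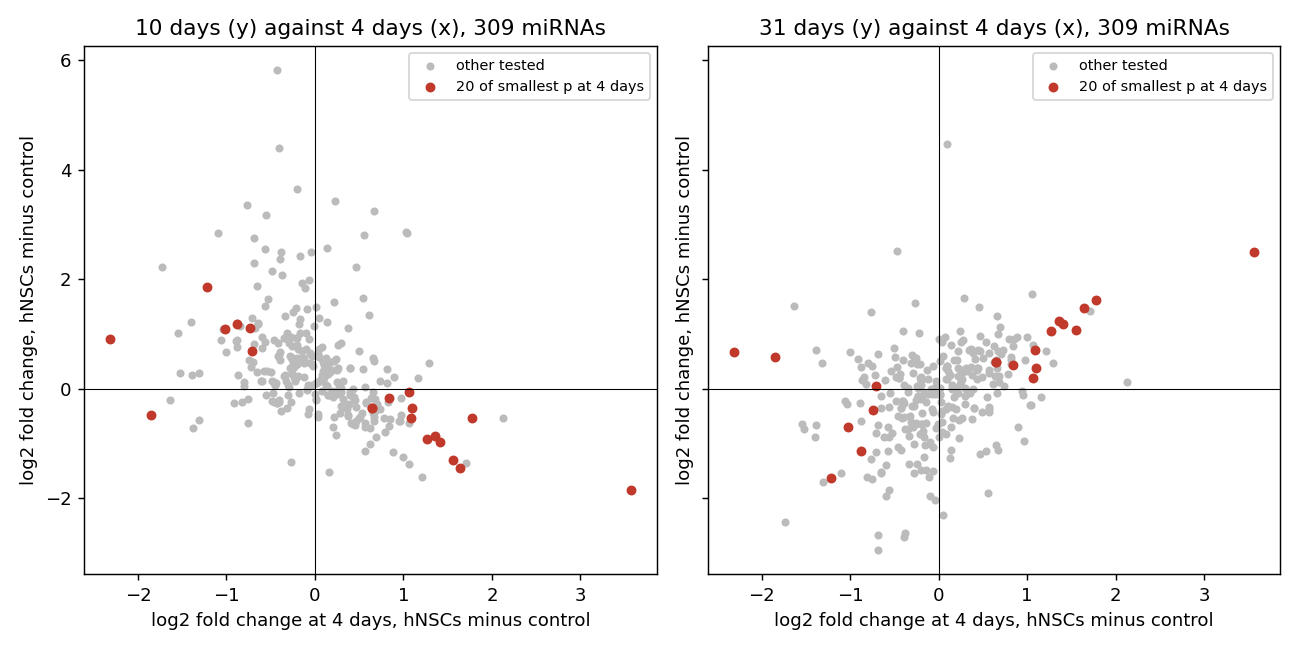
log2 fold change, hNSCs minus control, at 10 days (left) and 31 days (right) against that at 4 days, for the 309 miRNAs tested, with the 20 of smallest p at 4 days in red. The red points run from upper left to lower right at 10 days and from lower left to upper right at 31 days, with 19 and 3 of the 20 of opposite sign.

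In brain-derived EVs of the same groups, 1 of 350 miRNAs (0.286%) passed at 4 days, miR-653-5p, at 3.72 ± 0.76 (SE) on the log2 scale with an adjusted p of 0.0284 in edgeR. That call was lost, leaving 0, without library 1 or 2 of the hNSCs group and without library 2 or 3 of the control group. miR-488-3p was 0.20 there, at 51.4 to 58.7 CPM in the control group and 53.6 to 79.7 CPM in the hNSCs group, and miR-128-3p was −0.10. Over the 253 miRNAs tested in both tissues the log2 fold changes correlated at r = 0.03, and 51.8% had opposite signs. Of the 20 miRNAs of smallest p in plasma, 17 were tested in brain and 4 of those had the opposite sign there.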

How the data were processed

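Plasma EV small RNA libraries (QIAseq miRNA kit) in 7 groups of 3, 21 in all, were used, grouped by the sample labels. The deposited counts are UMI counts that the authors made per miRNA, without normalization, after removing other small RNA classes with Bowtie and matching miRBase and predicted miRNAs. The deposited TPM values are the authors' counts scaled to the library total, without length correction. Aligner settings and mismatch limits are not given in the sources used here. The deposited plasma mRNA counts of the same labels gave the hemoglobin share. FPKM values were not used.

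Known miRNAs were filtered with filterByExpr, scaled with TMM factors and tested with edgeR 4.0.16 quasi-likelihood fits in R 4.3.3, with 7 groups in 1 model. A miRNA was called past 1.5-fold when its p, adjusted by Benjamini-Hochberg, was under 0.05. Brain libraries had a model of their own. The other tools were DESeq2 1.42.0 and limma 3.58.1 with trend, on log2(TPM + 1) or log2(TPM + 0.1). The study's methods name limma, and edgeR was used here because the files hold counts. The fit was tested on simulated counts. Other scalings, filters, a replicate block and leaving out libraries were tried. Library measures were compared by two-sided exact permutation tests in R, and sequences were read in Python 3.11.15.

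The miRNAs named are the called ones, filled to 20 by unadjusted p, the 10 of highest mean CPM, and the 2 of highest mean CPM in each list. Other arms, seed mates and further list members were chosen after their values were seen. Members, lists and comparisons were chosen with earlier results of these data known. P-values of edgeR weigh a difference against the spread between these libraries, estimated over all 7 groups of the model and not the compared groups alone. CPM is relative to the other miRNAs of a library. Intervals on counts cover counting error only.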

Additional observations from a re-analysis of the deposited data

Results flagged for a closer look

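The difference between the hNSCs and control groups in miR-488-3p was 5.41 higher on the log2 scale at 4 days than at 10 days (edgeR interaction term, adjusted p = 0.0353), and it was singled out because the effect of hNSCs differed between time points. It was positive at 4 days, at 3.57, and negative at 10 days, at −1.85. The 3 control libraries at 4 days held 3, 3 and 2 counts of it. Groups of 3 libraries are too small for the search for a library far from its group.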

How the results depend on the processing

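The count of 0 calls at 4 days became 1 in DESeq2, without the filter on low counts and with only the groups compared, miR-488-3p each time, and 14 without adjustment. It was 0 to 0 with a library left out. The 1 call between 4 and 10 days became 8 in DESeq2, 3 without the filter, 0 with predicted miRNAs kept, 0 with only the groups compared, 59 without adjustment and 0 to 3 with a library left out. Between 4 and 31 days it was 7 without adjustment. The 1 brain call became 0 with limma on log2(TPM + 0.1), with predicted miRNAs kept and with only the groups compared, 12 without adjustment and 0 to 1 with a library left out. Replicate numbers were shared between groups, but the same-number correlations of 0.0647, 0.115 and 0.467 were not all over 0.1, so the numbers were not taken as pairs. With the replicate block the counts were 0 at 4 days, with a smallest adjusted p of 0.220, 1 between 4 and 10 days, 0 between 4 and 31 days and 1 in brain, and library 1 of the hNSCs group correlated best with library 2 of the control group. The median of all miRNAs moved by −0.125 with library totals and by 0.107 without library 2 of the control group.

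Log2 fold changes near 0 changed sign, and the cause was not tested. With RLE factors they were −0.066 for miR-150-5p, −0.072 for miR-200b-3p, −0.061 for miR-23a-3p and −0.066 for miR-23b-3p, and in DESeq2 −0.066, −0.071, −0.062 and −0.066. With library totals they were −0.15, −0.14, −0.11 and −0.12, and −0.033 for miR-16-5p. With limma, at either pseudocount, they were −0.15 for miR-150-5p, −0.11 for miR-23a-3p, −0.11 for miR-23b-3p and −0.028 for miR-16-5p. Without the filter they were −0.062 for miR-150-5p, −0.082 for miR-200b-3p, −0.075 for miR-23a-3p and −0.079 for miR-23b-3p, and at a mean TPM over 5 −0.080, −0.098, −0.059 and −0.063. With the replicate block they were −0.036 for miR-150-5p and −0.0062 for miR-200b-3p, and with only the groups compared −0.00193 for miR-150-5p and −0.082 for miR-200b-3p. With predicted miRNAs kept they were 0.023 for miR-21-5p, 0.20 for miR-7a-5p, −0.16 for miR-200b-3p, 0.28 for miR-25-3p, 0.13 for miR-181a-5p and 0.046 for miR-146a-5p. With TMMwsp factors miR-434-3p was 0.0092. With a library left out the ranges were −0.11 to 0.38 for miR-16-5p, −0.13 to 0.67 for let-7c-5p, −0.93 to 0.41 for miR-122-5p, −0.33 to 0.51 for let-7b-5p, −0.62 to 0.0046 for miR-21-5p, −0.26 to 0.21 for miR-150-5p, −0.53 to 0.19 for miR-7a-5p, −0.51 to 0.16 for miR-200a-3p, −0.61 to 0.95 for miR-200b-3p, −0.15 to 0.19 for miR-25-3p, −0.016 to 0.085 for miR-23a-3p, −0.024 to 0.084 for miR-23b-3p and −0.29 to 0.25 for miR-434-3p. Alternatives for the brain comparison, the lists, the library measures and the correlations of time points were chosen after seeing the data.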
